A study of Mus musculus with 15 samples.

Results

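The nuclear receptor FXR is made in 4 isoforms, FXRα4, FXRα3, FXRα2 and FXRα1, that differ in 2 features. The N-terminus is longer in FXRα4 and FXRα3 and shorter in the other pair. A short insert beside the DNA-binding domain is present in FXRα3 and FXRα1 and missing from FXRα4 and FXRα2. The data described here are the genes at which the effect of the insert depended on the N-terminus. The interaction was computed on the 12 isoform arrays, of 15 arrays in all, as FXRα4 minus FXRα3, less FXRα2 minus FXRα1. Each of these differences is an isoform without the insert minus the isoform of the same N-terminus with it, and is called an insert difference. A positive interaction means that leaving out the insert raised a gene more, or lowered it less, on the longer N-terminus. A negative interaction means the same on the shorter one. All values are deposited log2 values, so an interaction of 1 is a 2-fold ratio between fold changes.

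FXR, encoded by Nr1h4, is the bile acid receptor of liver and intestine. It binds DNA mostly as a partner of RXR, raises genes that export bile acids from hepatocytes and, through repressors such as Nr0b2, lowers genes of bile acid synthesis. It also acts on lipid, glucose and fibrinogen genes. The isoforms arise from 2 promoters and from splicing of the insert, and they share the ligand-binding domain.

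The cells were primary hepatocytes of male C57BL/6J mice, taken from liver by collagenase perfusion. They were transduced overnight and harvested 36 h after transduction. The adenoviruses carried human FXRα4, FXRα3, FXRα2 or FXRα1, and each of them also made GFP from a CMV promoter of its own. The controls received a virus with GFP alone, so all 5 groups had adenovirus and GFP in common. There were 3 arrays per group, and RNA was measured on an Affymetrix mouse whole-transcript array. The mouse cells kept their own FXR, the array reads mouse RNA, and the level of each human isoform was therefore not measured here. A difference between isoforms cannot be told apart from a difference in how much of each was made. Whether the 3 arrays of a group stand for different mice or wells is not given in the labels, so the p-values speak to the spread among these arrays alone, and that spread may be technical. In bulk RNA, fewer cells of a type and less RNA per cell cannot be told apart.

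Of 35556 probe sets, 21218 carried 1 gene symbol, and keeping the probe set with the highest mean over all 15 arrays gave 18820 genes. Arrays of 1 group correlated at 0.9969 to 0.9989 and arrays of different groups at 0.9845 to 0.9977, across genes. Alb, the main hepatocyte product, had log2 values of 13.01 to 13.20 on all 15 arrays. In a principal component analysis of the 12 isoform arrays, the first component held 52.7% of the variance and put the FXRα4 and FXRα2 arrays at 18.76 to 26.27, against -22.81 to -20.86 for the FXRα3 and FXRα1 arrays. The second held 19.7% and set the isoforms without the insert apart from each other, with FXRα4 at 17.19 to 20.59 and FXRα2 at -18.82 to -16.61. FXRα3 and FXRα1 lay nearer to each other there, at 3.74 to 5.46 and -5.92 to -4.46. The third held 9.38%, and its highest values were those of the replicate 3 arrays of FXRα4, FXRα2 and FXRα1, at 9.53, 9.63 and 19.27.

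The insert difference depended on the N-terminus at 2122 of 18820 genes, 11.3% of those tested, by limma at an adjusted p under 0.05 (Benjamini-Hochberg over all genes, two-sided, 3 arrays per group). Genes past this threshold are said to be called. The interaction was positive at 1187 genes, 6.31%, and negative at 935 genes, 4.97%. Positive calls were 55.9% of the total, against 50.6% after quantile normalization, 48.6% after centring each array on its 75th percentile and 44.3% after centring on its median, so the balance of directions followed the scaling. Without FXRα3 replicate 2, FXRα3 replicate 1 or FXRα2 replicate 2 the positive calls numbered 768, 770 and 779. The median size of a called interaction was 0.50 for positive and 0.48 for negative genes (log2). At least 2-fold was reached by 63 positive and 87 negative genes. The median over all genes was 0.0235.

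At most of these genes the insert difference was called on 1 N-terminus and not on the other. Among the positive genes, 419 were higher with FXRα4 than FXRα3 while FXRα2 minus FXRα1 was not called, and 412 were lower with FXRα2 than FXRα1 while FXRα4 minus FXRα3 was not called. Among the negative genes, 323 were higher with FXRα2 than FXRα1 alone and 220 were lower with FXRα4 than FXRα3 alone. The insert differences were called on both N-termini, in the same direction but by unequal amounts, at 524 genes, out of 3074 genes with that pattern. They were called in opposite directions at 182 genes. Seen from the insert, 7665 genes had an insert difference called on at least 1 N-terminus, and the interaction was called at 27.1% of them. FXRα4 minus FXRα3 was called at 5307 genes (28.2%) and FXRα2 minus FXRα1 at 5614 (29.8%).

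The same interaction is also the N-terminus difference without the insert less that with it. FXRα4 minus FXRα2 was called at 4125 genes (21.9%), 10.7% upward and 11.2% downward. FXRα3 minus FXRα1 was called at 1057 genes (5.62%), 1.8% upward and 3.82% downward. The spread of these differences over genes was 0.268 without the insert and 0.162 with it (SD across 18820 genes, log2). The number for FXRα3 minus FXRα1 depended on single arrays. It was 607, 648 and 703 without FXRα3 replicate 2, FXRα3 replicate 1 and FXRα1 replicate 1, and 1606 without FXRα1 replicate 2. Across genes, which are not independent replicates, the insert differences of the 2 N-termini correlated at r = 0.698, with a slope of 0.665 for the longer on the shorter N-terminus. No array enters both. The N-terminus differences without and with the insert correlated at r = 0.306, again with no shared array.

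**Figure D1:**
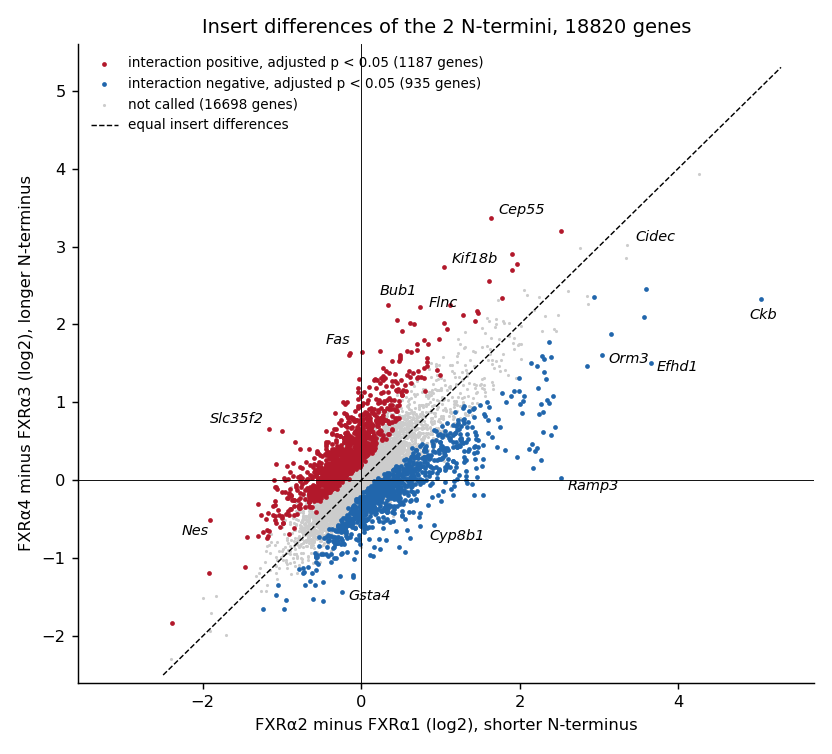
Each point is 1 of 18820 genes, with FXRα4 minus FXRα3 on the vertical axis and FXRα2 minus FXRα1 on the horizontal axis, both in log2. The 1187 red genes with a positive interaction lie above the dashed line of equal insert differences and the 935 blue genes with a negative one below it, with Ckb farthest out on the blue side at 2.32 and 5.05.

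For each N-terminus, the isoform without the insert set the extreme values at many of these genes. Every FXRα4 array lay above the other 12 arrays at 438 of the 1187 positive genes, where 5.6% of all genes showed that order. Every FXRα2 array lay below the other 12 at 369 of them, against 4.89% of all genes. At 527 of the 935 negative genes every FXRα2 array lay above the other 12, against 6.13% of all genes, and at 300 every FXRα4 array lay below, against 5.58%. These orders use the same arrays as the interaction and are given as a description. Counted on the linear scale, with 2 raised to each group mean, the sign of the difference of differences was the same at 2121 of the 2122 called genes.

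Bub1 and Slc35f2 had the largest positive interactions. Of the 15 largest, Bub1, Ncapg, Sgo2a, Cep55, Kif18b, Pclaf, Ect2 and Cdca5 are known to act in replication or mitosis. They were grouped after their values were seen, and of these 8 only Bub1 is on the cell cycle list counted further on. All 8 were highest with FXRα4, and at Bub1, Ncapg, Sgo2a and Ect2 the difference between FXRα2 and FXRα1 was not called. Promoters of 5 of them, with and without CCAAT, are shown for the CCAAT box, an element frequent in promoters of mitotic genes, and for the cell cycle homology region, the letters TTTGAA, at which cell cycle repressor complexes bind. The sequences are from RefSeq on GRCm38.p6 and hold the 200 bases before a transcript start, read 5′ to 3′ on the gene's strand. Capitals mark CCAAT or TTTGAA on either strand.
Bub1, chr2:127831860-127832059, minus strand: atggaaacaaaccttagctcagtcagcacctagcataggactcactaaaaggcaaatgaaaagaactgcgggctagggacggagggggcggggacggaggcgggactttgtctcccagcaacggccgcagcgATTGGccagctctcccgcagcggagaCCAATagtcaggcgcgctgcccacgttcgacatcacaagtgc
Ncapg, chr5:45669725-45669924, plus strand: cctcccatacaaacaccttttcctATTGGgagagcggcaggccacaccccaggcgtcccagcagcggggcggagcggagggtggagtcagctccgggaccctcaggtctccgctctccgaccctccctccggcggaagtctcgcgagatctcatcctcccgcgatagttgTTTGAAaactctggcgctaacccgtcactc
Kif18b, chr11:102925125-102925324, minus strand: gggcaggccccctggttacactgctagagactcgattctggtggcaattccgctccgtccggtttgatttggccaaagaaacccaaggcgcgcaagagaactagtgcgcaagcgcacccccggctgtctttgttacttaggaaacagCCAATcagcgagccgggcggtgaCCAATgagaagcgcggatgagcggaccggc
Ect2, chr3:27153855-27154054, minus strand: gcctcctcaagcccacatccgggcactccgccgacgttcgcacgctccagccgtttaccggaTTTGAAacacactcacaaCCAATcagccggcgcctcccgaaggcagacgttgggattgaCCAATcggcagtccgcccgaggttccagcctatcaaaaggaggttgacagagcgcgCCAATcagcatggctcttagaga
Cdca5, chr19:6084897-6085096, plus strand: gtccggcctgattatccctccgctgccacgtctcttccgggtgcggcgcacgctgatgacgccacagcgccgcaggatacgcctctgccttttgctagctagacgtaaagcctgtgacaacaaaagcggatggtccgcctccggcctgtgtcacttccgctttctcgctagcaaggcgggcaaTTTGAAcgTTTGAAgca
In these windows Bub1 and Kif18b held 2 CCAAT boxes each and no TTTGAA, Ncapg held 1 of each, Ect2 held 3 CCAAT boxes and 1 TTTGAA, and Cdca5 held 0 CCAAT boxes and 2 TTTGAA. Of the others, Cep55 had no CCAAT in either of its 2 windows, Sgo2a had it in 1 of 2, and Pclaf held 2. Over 250 bases before the start, CCAAT was found in 10 of the 20 windows of the 15 genes with the largest positive interaction and in 10 of 17 windows of the 15 with the largest negative one (58.8%). It was found in 34.7% of the 18155 windows of all genes, of which 14749 matched by symbol. TTTGAA was found in 6 of the 20 windows, in 0 of the 17 windows and in 13.3% of all windows. Over the full sets of called genes CCAAT was in 37.8% of the windows of positive and 33.7% of those of negative genes, and TTTGAA in 11.3% and 8.19%, both below the share of all windows. For the cell cycle list counted further on, CCAAT was in 61.8% and TTTGAA in 26.5% of 34 windows. For its positive members they were in 66.7% and 33.3% of 12 windows. A match is a description of the letters and not a bound site.

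Bub1, the spindle checkpoint kinase (probe set 10487480, chr2:127800197-127831859 on GRCm38.p6), had log2 values of 5.36, 5.78 and 6.47 with FXRα4 and 3.44, 3.46 and 3.94 with FXRα3. It had 3.56, 3.63 and 4.25 with FXRα2 and 3.61, 3.38 and 3.45 with FXRα1. In GFP cells it had 3.39, 3.46 and 3.47. The FXRα4 arrays stood apart from all others, and the remaining groups overlapped. FXRα4 was 4.77-fold over FXRα3 and FXRα2 was 1.26-fold over FXRα1, which gives an interaction of 1.92 ± 0.30 (log2, SE, limma adjusted p = 0.000339). Ncapg, a subunit of condensin, had 5.64, 5.79 and 6.38 with FXRα4, 4.20, 4.13 and 4.61 with FXRα3, 3.85, 4.03 and 4.21 with FXRα2, and 4.02, 4.10 and 4.38 with FXRα1. Its GFP arrays read 4.06, 4.03 and 4.23, and here too the FXRα4 arrays were the high ones. The interaction was 1.77 ± 0.24 (limma adjusted p = 6.75e-05).

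Other mitotic genes were raised without the insert on both N-termini, and by more on the longer one. Cep55, which acts at the last step of cytokinesis, had 7.03, 7.18 and 7.55 with FXRα4, 3.92, 3.81 and 3.90 with FXRα3, 5.01, 5.31 and 5.85 with FXRα2, and 3.61, 3.70 and 3.94 with FXRα1. FXRα4 was 10.3-fold over FXRα3 and FXRα2 was 3.11-fold over FXRα1, with an interaction of 1.73 ± 0.24 (limma adjusted p = 9.09e-05). No array of an isoform without the insert overlapped one with it. Kif18b, a kinesin that shortens microtubules, had 7.73, 7.58 and 7.97 with FXRα4, 5.59, 5.93 and 6.13 with FXRα2, and 4.64 to 5.09 on the 6 arrays with the insert. Its interaction was 1.70 ± 0.20, but a second, dimmer Kif18b probe set gave 0.09 (limma adjusted p = 0.748). For Pclaf, a partner of the replication clamp, the second probe set gave 1.75 beside 1.61 on the first. Cdca5, which keeps sister chromatids together, had an interaction of 1.33 ± 0.23, with insert differences of 2.00 on the longer and 0.67 on the shorter N-terminus.

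Over the cell cycle list as a whole, 13 of 35 measured genes had a positive and 2 a negative interaction, beside 6.31% and 4.97% of all genes. The median interaction was 0.42, against 0.0235 over all genes, and it was 0.36 to 0.42 under the 3 other scalings. The positive genes were Bub1, Birc5, Aurkb, Top2a, Aurka, Kif11, Cdc6, Bub1b, Rrm2, Cenpe, Cdkn2b, Mad2l1 and Cdk1. Not all of them push the cycle: Cdkn2b is a CDK inhibitor, with insert differences of -0.18 on the longer and -0.73 on the shorter N-terminus. The negative genes were Cdt1, a licensing factor of replication (-0.65 ± 0.12), and the CDK inhibitor Cdkn1a (-0.27 ± 0.06). Bub1, Birc5, Aurkb, Aurka, Cdc6, Rrm2, Mad2l1, Cdt1 and Cdkn1a were called whichever array was left out. Top2a, Cdk1, Kif11, Cenpe, Bub1b and Cdkn2b lost their call in 8, 6, 5, 3, 3 and 3 of the 12 leave-outs, with limma adjusted p up to 0.12, 0.106, 0.0629, 0.053, 0.0507 and 0.0679. Each of them was among those lost without FXRα4 replicate 3, except Cenpe, which was lost without FXRα3 replicate 1, FXRα2 replicate 1 or FXRα2 replicate 2. For Mad2l1 a second probe set gave 0.27 (limma adjusted p = 0.377), beside 0.52 on the first.

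Each insert difference by itself was called upward at many of the 35 genes. FXRα4 was above FXRα3 at 24 and below at 6, where 15.2% and 13% of all genes were called in those directions. FXRα2 was above FXRα1 at 17 and below at 8, beside 13.6% and 16.2%. The median insert difference of the list was 0.57 on the longer and 0.19 on the shorter N-terminus. Birc5, an inhibitor of apoptosis that also belongs to the chromosomal passenger complex, had 5.81, 5.52 and 5.93 with FXRα4, 4.48, 4.49 and 4.39 with FXRα3, 4.62, 4.46 and 4.79 with FXRα2, and 4.65, 4.53 and 4.77 with FXRα1. Its FXRα4 arrays lay above all others, and its interaction was 1.33 ± 0.17. By contrast Plk1 and Cdc20, which drive mitotic entry and exit, had nearly as large an insert difference on both N-termini, at 2.00 and 1.70 for Plk1 and 2.44 and 2.06 for Cdc20, and their interactions were not called (limma adjusted p = 0.412 and 0.492). Mki67, the proliferation marker, was not called either, at 0.63 ± 0.32 (limma adjusted p = 0.248).

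Level and replicate moved together in the cell cycle list. Replicate 3 held the highest of the 3 values at 30 of 35 genes with FXRα4, 32 with FXRα3, 31 with FXRα2, 26 with FXRα1 and 19 with GFP. Their summed linear level on replicates 1, 2 and 3 was 17700, 17800 and 20000 with FXRα4, 17000, 17200 and 18400 with FXRα3, 15300, 15400 and 16800 with FXRα2, 15400, 15400 and 16500 with FXRα1, and 15200, 15100 and 15500 with GFP. The positive calls in the list numbered 13 with all arrays. They ranged from 8, without FXRα4 replicate 3 or FXRα2 replicate 2, to 18, without FXRα2 replicate 3. With a block for replicate number in the fit, the list had 19 positive and 3 negative calls. What a replicate number marks is not given in the labels, and its part in the result was not tested further.

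**Figure D2:**
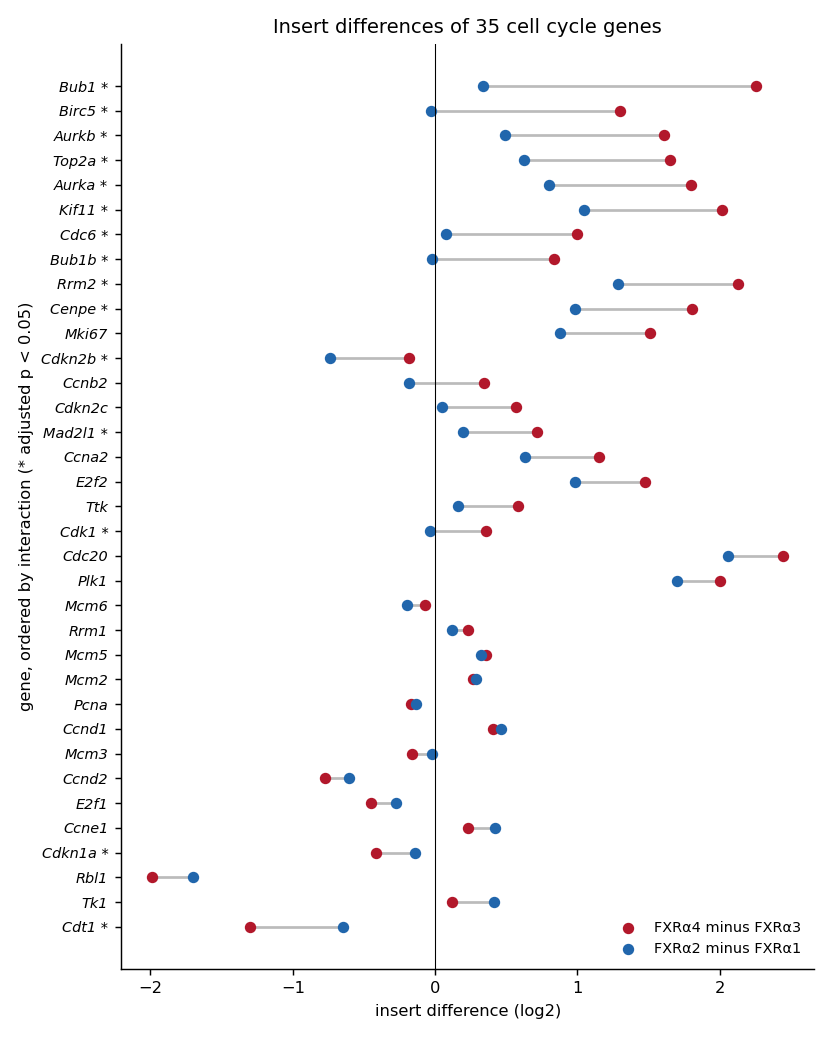
The 35 cell cycle genes run down the axis by interaction, with FXRα4 minus FXRα3 in red and FXRα2 minus FXRα1 in blue (log2), and stars for the 15 genes with an adjusted p under 0.05. The red point lies right of the blue one from Bub1 down to Mcm5 and left of it from Mcm2 to Cdt1.

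Genes outside the cell cycle with a large positive interaction included Fas, Flnc, Slc35f2, Klrg2, Nes, Ptpn7 and Adcy2. Fas, the death receptor, had 8.58, 8.49 and 8.76 with FXRα4, 6.82, 6.99 and 7.08 with FXRα3, 7.0, 7.26 and 7.40 with FXRα2, and 7.20, 7.03 and 7.42 with FXRα1. GFP arrays read 7.02, 7.01 and 6.94. The FXRα4 arrays stood over 1 log2 unit above all the others, which overlapped. FXRα4 was 3.14-fold over FXRα3 while FXRα2 over FXRα1 was 1.0-fold, and the interaction was 1.65 ± 0.16 (limma adjusted p = 2.03e-06).

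Flnc, an actin crosslinker of muscle, took a different course. Its values were 9.63, 9.49 and 9.68 with FXRα4, 7.33, 7.35 and 7.45 with FXRα3, 9.13, 9.21 and 9.50 with FXRα2, 8.67, 8.45 and 8.48 with FXRα1, and 6.60, 6.53 and 6.50 with GFP. FXRα3 was the low isoform here, and every isoform was above GFP by limma over all 15 arrays, by 3.06, 0.83, 2.74 and 1.99 for FXRα4, FXRα3, FXRα2 and FXRα1. These 4 differences share the GFP arrays, and they were called upward at 18%, 7.45%, 17.5% and 8.42% and downward at 15.7%, 6.62%, 16.7% and 4.0% of all genes, in the same order. The interaction was 1.48 ± 0.12 (limma adjusted p = 3.35e-07). Nes, an intermediate filament protein, was lowered without the insert on both N-termini, by less on the longer one. It had 6.85, 6.76 and 7.0 with FXRα4 and 7.18, 7.44 and 7.51 with FXRα3, beside 6.00, 5.83 and 6.22 with FXRα2 and 7.86, 7.83 and 8.10 with FXRα1. Its insert differences were -0.51 and -1.91, and its interaction was 1.41 ± 0.16. Ptpn7, a tyrosine phosphatase, and Adcy2, an adenylyl cyclase, were raised without the insert on both N-termini, by 2.02 and 1.92 on the longer and by 0.62 and 0.52 on the shorter one.

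**Figure D3:**
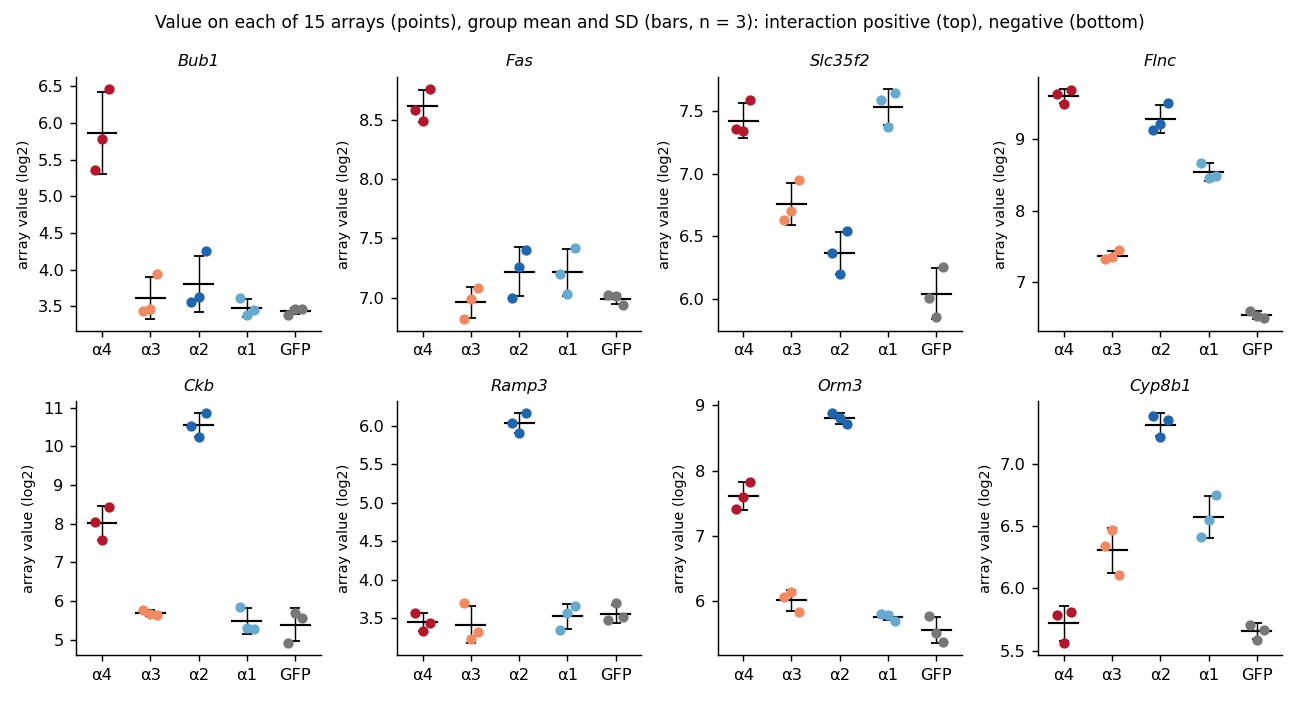
Points are the log2 values of single arrays, 3 per group, with the group mean and SD as bars, for 4 genes with a positive interaction (top) and 4 with a negative one (bottom). FXRα4 stands alone above the other groups for Bub1 and Fas, and FXRα2 stands alone for Ramp3 at 5.91 to 6.17, where the other 12 arrays lie between 3.23 and 3.69.

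Ckb and Efhd1, with a large negative interaction, were highest with FXRα2. Ckb, the brain form of creatine kinase (probe set 10402708, chr12:111669355-111672338), had 8.04, 7.58 and 8.44 with FXRα4, 5.78, 5.68 and 5.64 with FXRα3, 10.53, 10.24 and 10.86 with FXRα2, and 5.86, 5.32 and 5.28 with FXRα1. GFP arrays read 4.91, 5.70 and 5.57. Both isoforms without the insert lay above all the rest, FXRα2 far above FXRα4. FXRα4 was 5.0-fold over FXRα3 and FXRα2 was 33.2-fold over FXRα1, and the interaction was -2.73 ± 0.26 (limma adjusted p = 1.43e-06). Efhd1, a calcium-binding protein of mitochondria, had the same shape, with group means of 5.40 with FXRα4, 3.90 with FXRα3, 7.43 with FXRα2 and 3.78 with FXRα1 and an interaction of -2.15 ± 0.24.

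For several genes the rise was called with FXRα2 and not with FXRα4. Ramp3, which pairs with the calcitonin receptor-like receptor, had 6.04, 5.91 and 6.17 with FXRα2, against 3.34, 3.56 and 3.66 with FXRα1. It had 3.57, 3.33 and 3.43 with FXRα4, against 3.69, 3.23 and 3.31 with FXRα3, and GFP arrays read 3.47, 3.69 and 3.51. Only the FXRα2 arrays left the common range, and the interaction was -2.49 ± 0.18 (limma adjusted p = 1.11e-07). Hapln4, a link protein of the extracellular matrix, had 8.66, 8.45 and 8.71 with FXRα2 and lay between 5.82 and 6.64 on the other 12 arrays, with an interaction of -2.02 ± 0.14. Rspo4, a secreted ligand of Lgr receptors in Wnt signalling, had 6.29, 6.38 and 7.11 with FXRα2 and lay between 4.13 and 4.74 elsewhere, with an interaction of -2.01 ± 0.23. Aldh1a2, which makes retinoic acid, had 6.01, 5.98 and 6.48 with FXRα2 and lay between 4.03 and 4.46 elsewhere, with -1.68 ± 0.18.

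The remaining genes among the 15 with the largest negative interaction were St6galnac4, Tmem163, Hrh3, Uroc1, Parvb, Rtp3, Rassf2, Tox2 and Sorbs3, between -1.82 and -1.61. Hrh3, a histamine receptor, had 6.25, 5.88 and 6.11 with FXRα2 and 4.53, 4.44 and 4.42 with FXRα4. For Parvb and Sorbs3, both of focal adhesions, FXRα4 minus FXRα3 was -0.19 in each case and not called. Rtp3 was read by 2 probe sets, at -1.73 and -1.22, both called.

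At 182 genes the insert differences were called in opposite directions, 96 with a positive and 86 with a negative interaction. Among the positive ones Slc35f2, a solute carrier, had 7.35, 7.34 and 7.58 with FXRα4, against 6.63, 6.70 and 6.95 with FXRα3. It had 6.37, 6.20 and 6.54 with FXRα2, against 7.58, 7.37 and 7.64 with FXRα1, and GFP arrays read 6.01, 5.86 and 6.26. FXRα4 was above FXRα3 and FXRα2 below FXRα1 with no overlap within either pair, and the interaction was 1.82 ± 0.16 (limma adjusted p = 5.95e-07). Klrg2, a lectin-like receptor, ran alike, with means of 8.10 with FXRα4, 7.46 with FXRα3, 6.92 with FXRα2 and 7.92 with FXRα1. Lgr5, a receptor for R-spondins and a Wnt target, had 4.64, 4.99 and 4.81 with FXRα4, 4.29, 4.49 and 4.44 with FXRα3, 3.80, 3.67 and 3.77 with FXRα2 and 4.53, 4.48 and 4.54 with FXRα1. Its FXRα2 arrays lay within the GFP range of 3.71 to 3.83 save for 1 below it, and its interaction was 1.18 ± 0.15. Acot4, a peroxisomal thioesterase, and Dthd1 completed the 5 largest, at 1.33 ± 0.13 and 1.29 ± 0.10.

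In the reverse case, FXRα4 lay below FXRα3 and FXRα2 above FXRα1. Gpd1, the cytosolic glycerol-3-phosphate dehydrogenase, had 8.28, 8.18 and 8.07 with FXRα4 and 8.99, 8.83 and 8.96 with FXRα3. It had 9.97, 9.86 and 9.91 with FXRα2 and 9.29, 9.16 and 9.45 with FXRα1. The FXRα4 arrays were the lowest and the FXRα2 arrays the highest of all 15, the GFP arrays lying at 8.77 to 9.02 between them, and the interaction was -1.36 ± 0.10 (limma adjusted p = 1.9e-07). Casp6, an effector caspase, showed the same order, with group means of 7.66 with FXRα4, 8.51 with FXRα3, 9.01 with FXRα2, 8.54 with FXRα1 and 8.19 with GFP and an interaction of -1.33 ± 0.11. Slc8b1, the sodium and calcium exchanger of mitochondria, had means of 6.87, 7.45, 8.88, 7.96 and 7.99 in that order of groups and an interaction of -1.50 ± 0.13. Blnk, an adaptor of B cell receptor signalling, had -1.47 ± 0.21.

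Cyp8b1, the sterol 12α-hydroxylase that sets the share of cholic acid, was the FXR target in this group. It had 5.79, 5.56 and 5.81 with FXRα4, 6.34, 6.47 and 6.11 with FXRα3, 7.38, 7.21 and 7.35 with FXRα2, 6.41, 6.55 and 6.75 with FXRα1, and 5.71, 5.59 and 5.67 with GFP. Its FXRα4 arrays overlapped the GFP arrays, where the FXRα2 arrays were the highest of all. FXRα4 minus FXRα3 was -0.58, FXRα2 minus FXRα1 was 0.74, and the interaction was -1.32 ± 0.16 (limma adjusted p = 2.44e-05).

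Known FXR targets took part in the interaction, mostly with negative values. Of 27 measured genes of the FXR target list, 3 had a positive and 9 a negative interaction, beside 6.31% and 4.97% of all genes, and the median was -0.18. Abcb11, the bile salt export pump, had the largest positive value among them. It had 7.08, 7.03 and 7.03 with FXRα4, 5.53, 5.51 and 5.95 with FXRα3, 8.46, 8.41 and 8.73 with FXRα2, 8.27, 7.88 and 8.39 with FXRα1, and 5.27, 5.04 and 5.21 with GFP. All 4 isoforms were above GFP by limma, by 1.87, 0.49, 3.36 and 3.01 for FXRα4, FXRα3, FXRα2 and FXRα1, and both isoforms of the shorter N-terminus were above those of the longer. The insert difference was 1.38 on the longer and 0.35 on the shorter N-terminus, an interaction of 1.03 ± 0.18 (limma adjusted p = 0.000784). On the linear scale the insert differences of Abcb11 were nearly equal on both N-termini, from a much lower FXRα3 than FXRα1 level. Its interaction is thus one of fold changes. Vldlr, a lipoprotein receptor, had 0.42 ± 0.10. Abcc2, an export pump for conjugates, had 0.22 ± 0.06 (limma adjusted p = 0.0225), and was not called without FXRα2 replicate 1 or FXRα3 replicate 1 (adjusted p = 0.067 and 0.0835) or after median centring (adjusted p = 0.228).

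The negative FXR targets were Cyp8b1, Cidea, Pdk4, Fga, Ppara, Fgb, Scarb1, Kng1 and Apoc3. Cidea, a lipid droplet protein, had 5.03, 5.12 and 5.03 with FXRα4, 4.85, 4.83 and 5.05 with FXRα3, 5.97, 6.14 and 6.14 with FXRα2 and 4.58, 4.71 and 4.60 with FXRα1. FXRα2 alone stood clear, and the interaction was -1.30 ± 0.15 (limma adjusted p = 1.28e-05). Pdk4, the kinase that shuts off pyruvate dehydrogenase, had 7.19, 7.30 and 7.69 with FXRα4, 6.96, 7.0 and 7.19 with FXRα3, 8.26, 8.35 and 8.60 with FXRα2 and 7.46, 7.30 and 7.48 with FXRα1. Its interaction was -0.64 ± 0.16. The fibrinogen chains Fga and Fgb had -0.58 ± 0.12 and -0.43 ± 0.10, with insert differences of 0.60 and 0.63 on the longer and 1.18 and 1.05 on the shorter N-terminus. A second Fga probe set gave -0.52 (limma adjusted p = 0.0599). Ppara had -0.48 ± 0.13 and lost its call without FXRα2 replicate 1, FXRα3 replicate 2 or FXRα4 replicate 2 (limma adjusted p = 0.0531, 0.0548 and 0.0517). Apoc3, at -0.24 ± 0.08, was close to the threshold (limma adjusted p = 0.0488). It was not called with all 15 arrays in the fit (adjusted p = 0.0604), and it kept its call in only 3 of the 12 leave-outs, those of FXRα3 replicate 3, FXRα2 replicate 3 and FXRα1 replicate 2 (adjusted p up to 0.151 in the others).

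Other FXR genes did not pass the test for the interaction. Cidec, a lipid droplet protein of the same family as Cidea, had 9.38, 9.27 and 9.40 with FXRα4, 6.39, 6.10 and 6.50 with FXRα3, 9.68, 9.71 and 9.94 with FXRα2 and 6.48, 6.30 and 6.47 with FXRα1. The isoforms without the insert were 8.13-fold and 10.3-fold over those with it, on the longer and the shorter N-terminus. Its interaction was -0.34, with a 95% interval of -0.62 to -0.05 and an adjusted p of 0.132 by limma. That outcome followed the scaling, since Cidec was called after quantile normalization, median centring and 75th percentile centring (-0.40, -0.39 and -0.37, limma adjusted p = 0.0246, 0.0224 and 0.0358), and it was also called without FXRα3 replicate 2 (-0.45, adjusted p = 0.0294). Nr0b2, the repressor known as SHP, had 4.45, 4.20 and 4.16 with FXRα4, 4.24, 4.20 and 4.14 with FXRα3, 4.94, 5.34 and 4.88 with FXRα2, and 4.52, 4.86 and 4.54 with FXRα1. FXRα2 was above FXRα1, at 0.42, and FXRα4 minus FXRα3 was 0.08 and not called. The interaction of -0.34 ± 0.19 was not called (limma adjusted p = 0.297). Cyp7a1, the rate-limiting enzyme of bile acid synthesis, lay between 2.99 and 3.28 on all 15 arrays, near the low end of the scale, and had an interaction of -0.05 ± 0.12 (limma adjusted p = 0.862). The mouse Nr1h4 itself had 7.39, 7.42 and 7.33 with FXRα4 and 6.90 to 7.16 on the other 12 arrays. Its interaction of 0.33 ± 0.11 was not called (limma adjusted p = 0.0614), but it was called with all 15 arrays in the fit, without the variance trend, with the dimmest 50% of genes left out and without FXRα1 replicate 2 (adjusted p = 0.0389, 0.0318, 0.0383 and 0.0354).

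**Figure D4:**
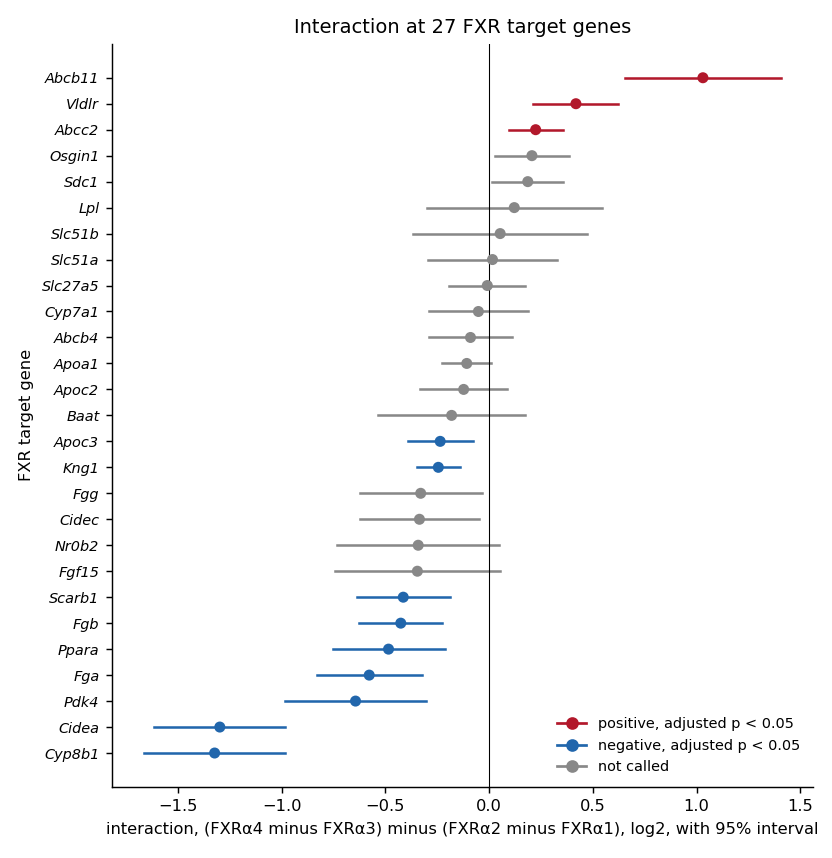
Interaction of the 27 measured FXR targets in log2 (points) with its 95% interval (lines), red for positive and blue for negative calls. Abcb11 stands out on the right at 1.03, and Cyp8b1 and Cidea on the left at -1.32 and -1.30.

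Of 34 measured genes of fatty acid oxidation and ketogenesis, 14 had a negative and 1 a positive interaction, beside 4.97% and 6.31% of all genes, with a median of -0.23. FXRα4 was above FXRα3 at 8 of them and below at 3, beside 15.2% and 13% of all genes. FXRα2 was above FXRα1 at 18 and below at 3, beside 13.6% and 16.2%. Bdh1, which makes the ketone body β-hydroxybutyrate, had 5.87, 5.58 and 5.78 with FXRα4, 5.43, 5.60 and 5.46 with FXRα3, 6.86, 6.96 and 6.64 with FXRα2 and 5.58, 5.53 and 5.87 with FXRα1, an interaction of -0.91 ± 0.17. Cpt1a, the gate of fatty acid entry into mitochondria, moved instead on the longer N-terminus. It had 8.59, 8.61 and 8.59 with FXRα4, against 9.02, 9.07 and 9.08 with FXRα3. It had 9.43, 9.46 and 9.43 with FXRα2, against 9.49, 9.38 and 9.51 with FXRα1, and the interaction was -0.44 ± 0.07. The beta-oxidation enzymes Eci1 and Hadh had -0.48 ± 0.08 and -0.38 ± 0.07. Replicate 3 held the highest value at 27 of 34 genes with FXRα1, against 9 with FXRα4, 11 with FXRα3 and 12 with FXRα2. The count moved with single arrays: the negative calls in this list were 7, 7, 8, 8, 9 and 9 without FXRα2 replicate 1, FXRα3 replicate 2, FXRα3 replicate 1, FXRα4 replicate 2, FXRα1 replicate 1 and FXRα4 replicate 3.

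Genes that build lipids were split. Of 26 genes of fatty acid and triglyceride synthesis, 5 were negative and 2 positive. The shares of all genes to set beside each list in this paragraph are 4.97% negative and 6.31% positive. The elongase Elovl5 had 9.71, 9.89 and 9.70 with FXRα4, 10.59, 10.69 and 10.77 with FXRα3, 10.35, 10.37 and 10.37 with FXRα2, and 10.55, 10.56 and 10.51 with FXRα1. FXRα4 was the lowest group, and the interaction was -0.74 ± 0.08. Lpin1, a phosphatidate phosphatase, went the other way at 0.58 ± 0.10, with insert differences of -0.26 and -0.84. Of 24 lipid droplet and lipolysis genes, Cidea and Plin3 were negative and Plin2 positive, a share of 12.5% beside 11.3% of all genes. Plin2, the main coat protein of droplets in hepatocytes, had 11.99, 12.05 and 12.04 with FXRα4 and 11.63, 11.58 and 11.63 with FXRα3, beside 12.02 to 12.09 on the FXRα2 and FXRα1 arrays. FXRα3 was the low group, and all isoform arrays lay below the GFP arrays at 12.25 to 12.29. The interaction was 0.36 ± 0.05 (limma adjusted p = 5.07e-05). In cholesterol synthesis and uptake 5 of 18 were negative and 0 positive by limma (8 and 1 at an unadjusted p under 0.05), among them Hmgcs1 (-0.30 ± 0.07) and Sqle (-0.29 ± 0.07). That count was 2 to 7 when 1 array was left out, lowest without FXRα1 replicate 1, FXRα2 replicate 2, FXRα3 replicate 1 or FXRα3 replicate 2. Among 26 apolipoprotein and lipoprotein genes 5 were negative, led by Apom (-0.59 ± 0.10), and 2 positive. The negative count there was 3 without FXRα2 replicate 1 or FXRα3 replicate 2.

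**Figure D5:**
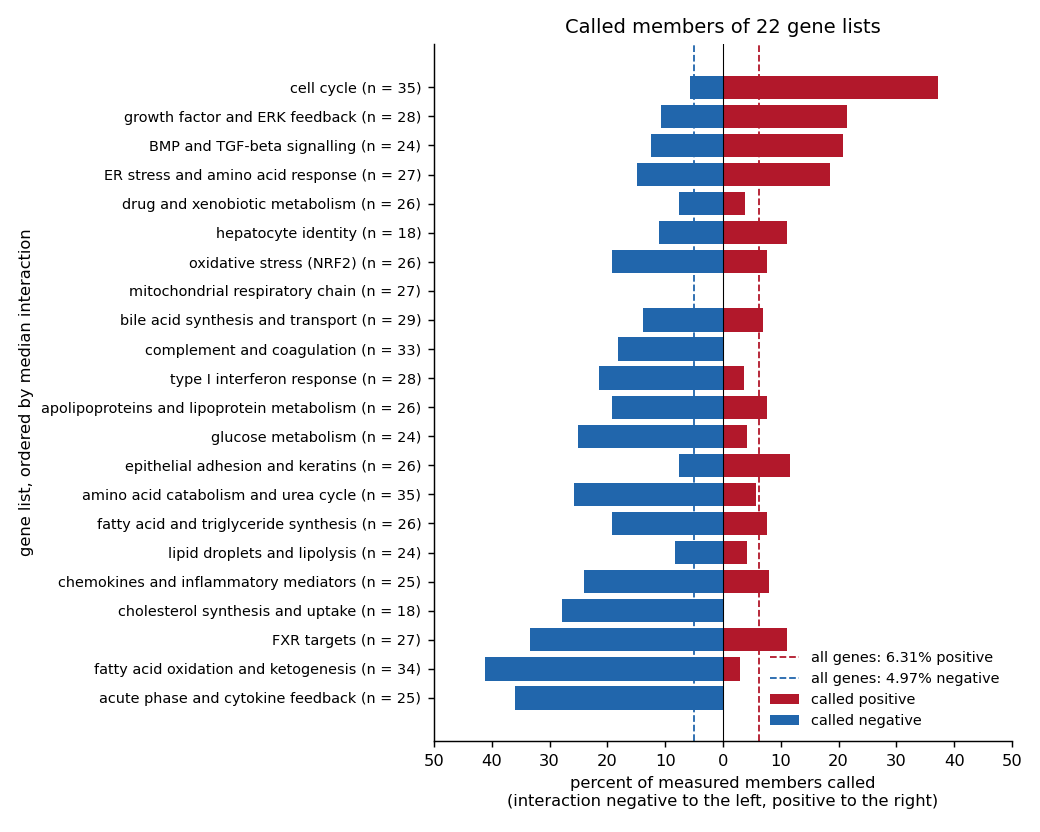
Bars give the percent of the measured members of 22 gene lists with a positive (red, right) or negative (blue, left) interaction, with dashed lines at the 6.31% and 4.97% of all genes. Cell cycle reaches furthest right with 13 of 35, fatty acid oxidation and acute phase furthest left with 14 of 34 and 9 of 25, and the respiratory chain has 0 of 27.

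Of 35 genes of amino acid catabolism and the urea cycle, 9 were negative and 2 positive, beside 4.97% and 6.31% of all genes, with a median of -0.14. Uroc1, the urocanase of histidine breakdown, had 5.34, 4.90 and 4.99 with FXRα4, 4.43, 4.58 and 4.17 with FXRα3, 6.72, 6.82 and 6.86 with FXRα2, and 4.56, 4.44 and 4.09 with FXRα1, an interaction of -1.75 ± 0.20. Hgd and Fah, enzymes of tyrosine breakdown, had -1.02 ± 0.17 and -0.44 ± 0.08, and Nags, which makes the activator of the urea cycle, had -0.60 ± 0.10. At Hgd and Nags both isoforms without the insert were higher, by 1.02 and 0.41 on the longer and by 2.04 and 1.01 on the shorter N-terminus. Of 24 glucose genes 6 were negative and 1 positive, beside the same shares of all genes. That negative count was 2 without FXRα2 replicate 1, FXRα3 replicate 1 or FXRα3 replicate 3 and 3 without FXRα1 replicate 1, FXRα1 replicate 2, FXRα4 replicate 1 or FXRα4 replicate 2.

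Acute phase genes, which hepatocytes secrete or use in inflammation, had the lowest median of the 22 lists, -0.32. By limma 9 of 25 were negative and 0 positive, beside 4.97% and 6.31% of all genes (14 and 0 at an unadjusted p under 0.05). FXRα4 was above FXRα3 at 9 of the 25 and below at 2, and FXRα2 was above FXRα1 at 16 and below at 0, where 15.2%, 13%, 13.6% and 16.2% of all genes were called in those directions. Orm2, an orosomucoid, had 10.04, 10.20 and 10.12 with FXRα4, 9.37, 9.24 and 9.20 with FXRα3, 11.38, 11.29 and 11.08 with FXRα2, and 8.98, 9.06 and 8.96 with FXRα1. Orm3 had 7.42, 7.59 and 7.83, then 6.06, 6.14 and 5.83, then 8.88, 8.81 and 8.71, then 5.80, 5.79 and 5.70 in the same order of groups. The isoforms without the insert were above those with it in both, with FXRα2 highest. The interactions were -1.40 ± 0.10 and -1.44 ± 0.15 (limma adjusted p = 8.68e-08 and 3.94e-06), but the Orm genes are near copies of each other, and their probe sets may read one another's RNA. The pentraxins differed in which isoform moved. Crp had 8.38, 8.25 and 8.22 with FXRα2 and 7.20 to 7.67 on the other 9 isoform arrays, with an interaction of -0.73 ± 0.12. Apcs had 9.42, 9.55 and 9.37 with FXRα3 and 8.73 to 9.0 on the other 9, with -0.70 ± 0.10. Socs3, the feedback inhibitor of cytokine signalling, had -0.78.

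In complement and coagulation 6 of 33 genes were negative and 0 positive by limma (9 and 2 at an unadjusted p under 0.05). Serpinf2, the plasmin inhibitor, was among the negative ones at -0.56 ± 0.11. Fga, Fgb and Kng1 were too, and they are also counted above as FXR targets. Of all genes 4.97% were called negative and 6.31% positive, here and beside the other lists of this paragraph. Replicate 1 held the highest value at 22 of 33 genes with FXRα2 and at 24 with GFP. It did so at 10 with FXRα4, 14 with FXRα3 and 10 with FXRα1. Chemokines and other mediators had 6 negative and 2 positive of 25. Cxcl1, which draws neutrophils, had 9.02, 9.02 and 8.96 with FXRα4, 8.54, 8.57 and 8.58 with FXRα3, 9.30, 9.26 and 9.45 with FXRα2, and 8.09, 8.04 and 8.18 with FXRα1. The isoforms without the insert were higher, and the interaction was -0.80 ± 0.09. Ccl2, which draws monocytes, had 9.75, 9.88 and 9.76 with FXRα1 and 10.39 to 10.94 on all other arrays, GFP included. FXRα1 was the low group here, and the interaction was -0.73 ± 0.09. Of 28 type I interferon genes 6 were negative, among them Cxcl10 (-0.74 ± 0.14), Ifih1 (-0.64 ± 0.12) and Isg20 (-0.57 ± 0.11), and Cmpk2, a nucleotide kinase of mitochondria, was positive at 1.09 ± 0.14. Cmpk2 had 7.48, 7.53 and 7.44 with FXRα4 and 6.54, 6.52 and 6.52 with FXRα2, above the 5.72 to 6.04 of the 6 arrays with the insert. Irf1 had -0.67 on the brighter probe set and -0.02 on the dimmer one (limma adjusted p = 0.973). Replicate 1 held the highest value at 21 of 28 interferon genes with FXRα2 and at 22 with GFP. It did so at 10 with FXRα4, 5 with FXRα3 and 12 with FXRα1.

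Signalling lists held calls in both directions. Of 28 genes of growth factor and ERK feedback, 6 were positive and 3 negative, beside 6.31% and 4.97% of all genes. Dusp6, the phosphatase that ERK induces against itself, had 8.56, 8.56 and 8.63 with FXRα4, 7.66, 7.68 and 7.77 with FXRα3, 8.41, 8.34 and 8.58 with FXRα2, and 8.20, 8.10 and 8.41 with FXRα1. FXRα3 was the low group, below the GFP arrays at 8.34 to 8.49, and the interaction was 0.67 ± 0.11. Egfr, the receptor of epidermal growth factor, had 9.99, 10.20 and 10.12 with FXRα4 and 10.56, 10.68 and 10.65 with FXRα3, beside 10.22 to 10.33 on the FXRα2 and FXRα1 arrays, and -0.53 ± 0.07. Etv5, an ETS factor induced by ERK, had 0.65 on the first and 0.68 on a second probe set. Of 24 BMP and TGF-beta genes 5 were positive, or 3 without FXRα3 replicate 2, and 3 negative, beside the same shares of all genes. The ligands went apart: Tgfb1 had -0.81 ± 0.10 and Tgfb2 0.61 ± 0.09. Tgfb1 had 9.96, 9.75 and 10.06 with FXRα2 and 8.63, 8.49 and 8.61 with FXRα1, beside 9.64, 9.60 and 9.83 with FXRα4 and 9.20, 9.12 and 9.15 with FXRα3. Inhbe, an activin subunit of liver, and Id3, a target of BMP signals, had -0.71 ± 0.09 and -0.65 ± 0.13. The medians of both lists lay within 0.05 of 0 and changed sign with the scaling, as did those of the ER stress and hepatocyte identity lists.

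Stress and drug genes gave single large values. Of 26 NRF2 genes 5 were negative and 2 positive, beside 4.97% and 6.31% of all genes. Those shares of all genes stand beside the other lists of this paragraph too. Gsta4, a glutathione transferase for lipid aldehydes, had 6.40, 6.22 and 6.36 with FXRα4, 7.78, 7.69 and 7.82 with FXRα3, 7.92, 7.90 and 7.92 with FXRα2, 8.19, 8.09 and 8.20 with FXRα1, and 7.32, 7.18 and 7.15 with GFP. FXRα4 was the one isoform below GFP, by 0.89, and the interaction was -1.19 ± 0.11 (limma adjusted p = 7.46e-07). Gclm, a subunit of the enzyme that limits glutathione synthesis, and Hmox1, heme oxygenase, had -0.58 ± 0.07 and -0.83 ± 0.15. Of 27 ER stress and amino acid response genes 5 were positive and 4 negative, with Aldh1l2 at 0.72 ± 0.09, Chac1 at -0.81 ± 0.10 and Ddit4 at -0.78 ± 0.08. The positive count was 3, 2 and 2 without FXRα2 replicate 1, FXRα3 replicate 1 and FXRα4 replicate 3. Of 26 drug metabolism genes 2 were negative and 1 positive, a share of 11.5% beside 11.3% of all genes. Nr1i2, the xenobiotic receptor PXR, had 5.77, 5.76 and 5.86 with FXRα4, 5.68, 5.50 and 5.70 with FXRα3, 7.85, 7.62 and 7.76 with FXRα2, and 6.61, 6.28 and 6.76 with FXRα1. FXRα2 was the high group and the longer N-terminus gave the lower values, with an interaction of -1.02 ± 0.16.

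The remaining lists had 0% to 22.2% of their members called, beside 11.3% of all genes. Of 27 respiratory chain genes 0 were called by limma, with 3 positive and 2 negative at an unadjusted p under 0.05, and their interactions lay between -0.22 and 0.29. Of 29 genes of bile acid synthesis and transport, 2 were positive and 4 negative, a share of 20.7% beside 11.3% of all genes, and the negative count was 2 without FXRα2 replicate 1, FXRα1 replicate 2 or FXRα3 replicate 3. Of 18 hepatocyte identity genes 2 were called in each direction, a share of 22.2%. Foxa1, a pioneer factor, was among the negative ones at -0.46 ± 0.11. In the epithelial adhesion list 3 of 26 were positive and 2 negative, a share of 19.2%. Krt19, a keratin of bile duct cells and of the cholangiocyte marker list, had 8.29, 8.29 and 8.75 with FXRα4, 11.12, 11.04 and 11.23 with FXRα3, 7.45, 7.54 and 7.66 with FXRα2, 10.66, 10.73 and 10.70 with FXRα1, and 9.26, 9.44 and 9.42 with GFP. The isoforms with the insert lay above GFP and those without it below. Krt19 had insert differences of -2.69 and -3.15 and an interaction of 0.46 ± 0.13. On the linear scale its difference of differences was negative, since the fall from FXRα3 to FXRα4 was the larger one there. Its positive call thus holds for fold changes only. It was not called without FXRα3 replicate 1 or 2, FXRα2 replicate 1 or 2, or FXRα1 replicate 3 (limma adjusted p up to 0.085).

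Markers of other liver cells were set beside these results. Of 12 Kupffer cell, 12 sinusoidal endothelial cell and 11 lymphocyte and neutrophil markers 0 were called in the interaction by limma, with 1, 1 and 0 at an unadjusted p under 0.05. Among all genes 11.3% were called. Log2 array values have no true zero, so none of these markers can be called absent. Of 12 stellate cell markers Reln was positive, of 9 measured cholangiocyte markers Krt19 and Pkhd1 were positive, and of 9 hepatocyte markers Hnf4a and Fga were negative. Hnf4a was not called without FXRα4 replicate 2, FXRα3 replicate 2, FXRα2 replicate 1 or 2, or FXRα1 replicate 2 (limma adjusted p up to 0.0889). The summed linear level of the Kupffer markers was 524 to 641 with FXRα4, 587 to 624 with FXRα3, 683 to 734 with FXRα2, 572 to 682 with FXRα1 and 611 to 669 with GFP. The stellate sum was 356 to 397 with FXRα4 and 317 to 353 on the other 12 arrays. The cholangiocyte sum was 1740 to 1940, 2700 to 2980, 1630 to 2000, 2170 to 2250 and 1090 to 1190, and the hepatocyte sum 21100 to 21800, 20700 to 21800, 21400 to 22300, 19600 to 20400 and 18300 to 19200, in the order FXRα4, FXRα3, FXRα2, FXRα1 and GFP. The part of cell makeup in the interaction was not tested.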

How the data were processed

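The authors deposited 1 log2 value per probe set and array for 15 Affymetrix mouse arrays, and the log base was inferred from the range of 1.93 to 13.8. Affymetrix Expression Console 1.1 and PLIER are named in the submitters' processing notes, while the background correction and normalization behind the values are not given. Array medians over all 35556 probe sets were 4.92 to 5.01, and the number of arrays limits the precision. Medians over the genes kept differed more, and centring on them shifted the median FXRα4 minus FXRα3 by -0.17. Probe sets were named from GEO's platform annotation: of 35556, 1881 had several symbols and 12457 none, and of genes with more than 1 probe set (1386) the brightest was kept.

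The deposited log2 values were fitted with limma 3.58.1 (R 4.3.3; group means of the 12 isoform arrays, eBayes with a trend), with Benjamini-Hochberg adjustment over 18820 genes and a threshold of 0.05. Differences to GFP came from a fit of all 15 arrays. The scripts were tested on simulated data. Alternatives were other variance settings, array weights, scalings, filters on dim genes, a 1.5-fold minimum, a block for replicate number, and each array left out in turn. Replicate numbers were not taken as pairs, since the labels do not say what a number marks. Of the same-number correlations of deviations 15 of 18 were over 0.1, with a median of 0.199. Of the different-number ones 5 of 36 were, with a median of -0.134. Genes were named by rule: the 15 largest of each sign, the 5 largest of each sign with opposite insert differences, all FXR targets, and up to 4 called members of each list with the smallest adjusted p. Other members of the lists that are named, such as Plk1, Cdc20 and Mki67, were chosen after their values were seen. The comparison and the 22 gene and 6 marker lists (554 of 612 genes measured) were chosen with earlier results of these data known. Some genes are on several lists, so the list counts are partly counts of the same genes. Tables and plots used Python 3.11.15, pandas 2.3.3, numpy 2.4.6 and matplotlib 3.10.9.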

Additional observations from a re-analysis of the deposited data

Results flagged for a closer look

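The effect of the insert differed between the N-termini by a direct test of that difference, the interaction term in limma, at 2122 genes. At 182 of them the insert differences themselves ran in opposite directions, each past the threshold. The largest of these with a positive interaction were Slc35f2 at 1.82, Klrg2 at 1.64, Acot4 at 1.33, Dthd1 at 1.29 and Lgr5 at 1.18 (log2). The largest with a negative interaction were Slc8b1 at -1.50, Blnk at -1.47, Gpd1 at -1.36, Casp6 at -1.33 and Cyp8b1 at -1.32. All 10 stood out because FXRα4 differed from FXRα3 in 1 direction and FXRα2 from FXRα1 in the other. Groups of 3 arrays are too small for a test of single outlying arrays.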

How the results depend on the processing

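The 30 genes with the largest interactions kept direction and call in every alternative that fitted them (703 of 703 values). The filters on dim genes left some of them out, so those had no value there. Second probe sets are not among these values, and that of Kif18b gave 0.089 (limma adjusted p = 0.748). Over all 113 called named genes, 2576 of 2692 values kept both, 116 lost the call and 0 changed direction. Requiring 1.5-fold lowered the calls to 732 (404 positive, 328 negative) for the interaction, 1347 for FXRα4 minus FXRα3, 1358 for FXRα2 minus FXRα1, 830 for FXRα4 minus FXRα2 and 149 for FXRα3 minus FXRα1. With the replicate block there were 3538 (2037 positive, 1501 negative) and 2284 for FXRα3 minus FXRα1, and all 2122 calls remained; the numbers are not established as pairs, although 9 of 12 arrays correlated best with their own number. In the cell cycle list the block gave 19 positive and 3 negative calls. Array weights gave 1821 positive calls and 1843 for FXRα3 minus FXRα1. Median centring gave 8718 for FXRα4 minus FXRα3, with the median over all genes at -0.19 for that difference, a shift of -0.17, and at -0.16 for FXRα2 minus FXRα1. Leaving out 1 array gave 1469 to 2478 interaction calls (768 to 1565 positive, 701 to 1034 negative), 4387 to 5550 for FXRα4 minus FXRα3, 4730 to 5625 for FXRα2 minus FXRα1, 3220 to 4414 for FXRα4 minus FXRα2 and 607 to 1606 for FXRα3 minus FXRα1. List counts of 5 or fewer whose values without 1 array are not given above moved by at most 2 genes. Of the 16 named genes that were not called, Cidec and Nr1h4 gained a call in 5 alternatives each, Fgg in 4 and Sdc1 in 1. With the block their adjusted p was 0.0145, 0.0249, 0.0121 and 0.0312. Fgg (-0.33) was also called with median centring, with 75th percentile centring and without FXRα1 replicate 3 (adjusted p = 0.0421, 0.0489 and 0.0281). Slc51a turned to -0.071 with array weights, -0.040 with median centring and -0.020 with centring on the 75th percentile, and Slc51b to -0.003 with median centring. Leaving out 1 array gave -0.071 to 0.097 for Slc51a, -0.082 to 0.209 for Slc51b, -0.132 to 0.014 for Cyp7a1, -0.037 to 0.260 for Lpl and -0.042 to 0.044 for Slc27a5. The causes were not tested. How far probe signals lay above background is not given by these values, so low genes such as Cyp7a1 may be at the floor.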
